A study of Mus musculus with 48 samples.

Results

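The urea cycle turns ammonia, released when amino acids are broken down, into urea that the kidney can excrete, and it runs at full strength almost solely in periportal hepatocytes. Its capacity is known to follow protein intake, with glucagon, glucocorticoids and C/EBP factors as inducers of its genes. The genes followed here were 6 listed members of the cycle: Nags, Cps1, Otc, Slc25a15, Asl and Arg1. Each was read from its single-symbol probe set with the highest mean over all 48 arrays; each had 1 such probe set, and all 6 were among the 13542 genes tested. The array carries Ass1, the enzyme between Otc and Asl, only on probe sets that list a further symbol, so Ass1 was not analysed here.

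Liver RNA came from the median lobe of F1 mice aged 3 weeks, whose sires had eaten a low protein diet (LPD) or a control diet (CD) from 3 to 12 weeks of age. Offspring carried 1 of 3 genotype labels, which with the sire diet gave the groups ATF7+/- LPD, ATF7+/- CD, ATF7+/+ LPD, ATF7+/+ CD, wild-type LPD and wild-type CD, with 8 arrays each. ATF7, a relative of ATF2, is a transcription factor that answers stress signals and binds cAMP response elements. How ATF7+/+ animals were bred in distinction to wild-type animals, the strain, and the sex and litter of each animal are not given in the sources used here; the tissue was taken from males and females. An array pair of ATF7+/+ CD and one of wild-type CD were near copies on variable genes and were averaged, leaving n = 7 in those groups and n = 8 in the other 4, 46 samples in all.

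Atf7 itself was lower in ATF7+/- than in ATF7+/+ liver by a log2 difference of -0.37 ± 0.06 (SE, limma adjusted p = 0.00124). Against wild-type liver the ATF7+/- difference was -0.20 (adjusted p = 0.242). The hepatocyte genes Alb, Ttr and Apoa1 lay between 12.85 and 13.70 on every array. On probe sets without a listed gene the arrays split into 18, called set A here, and 30, called set B, with 3 and 5 arrays of every group; the labels name no such sets. Within set A the 6 ATF7+/+ arrays had second component scores from -19.4 to -11.9, against 1.19 to 12.5 for the other 12, so the genotype label and whatever else sets these arrays apart cannot be told apart for them. Levels of Y-linked genes were high in 32 arrays and low in the other 16, with 6 of 8 high in each ATF7+/+ group and 5 of 8 in each other group; in set A all 6 ATF7+/+ arrays were high. For these reasons the differences that the text dwells on are also given within each array set.

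The RefSeq promoter windows (GRCm38.p6, 250 bases before to 50 after a gene's start) held 3 of the 6 members: Otc, Nags and Slc25a15. They are printed because the genotype label concerns a factor of cAMP response elements. Capitals mark the element's 5-base core TGACG and the GC box GGGCGG, on either strand. The windows are Otc at chrX:10252055-10252354 (plus strand), Nags at chr11:102145263-102145562 (plus strand) and the first of the Slc25a15 windows at chr8:22398228-22398527 (minus strand), each spanning the start site and so covering upstream sequence and the beginning of the transcript.
Otc: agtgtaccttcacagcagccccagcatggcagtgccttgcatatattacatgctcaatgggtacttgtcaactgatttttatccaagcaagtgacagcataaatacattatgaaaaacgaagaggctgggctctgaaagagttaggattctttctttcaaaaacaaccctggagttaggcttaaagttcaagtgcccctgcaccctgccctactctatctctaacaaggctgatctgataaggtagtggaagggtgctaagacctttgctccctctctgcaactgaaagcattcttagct
Nags: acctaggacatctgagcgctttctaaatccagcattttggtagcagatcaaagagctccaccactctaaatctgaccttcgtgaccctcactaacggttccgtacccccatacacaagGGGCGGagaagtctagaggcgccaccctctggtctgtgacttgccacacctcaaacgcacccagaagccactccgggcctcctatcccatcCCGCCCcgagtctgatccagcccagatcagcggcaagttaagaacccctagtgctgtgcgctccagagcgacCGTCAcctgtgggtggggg
Slc25a15: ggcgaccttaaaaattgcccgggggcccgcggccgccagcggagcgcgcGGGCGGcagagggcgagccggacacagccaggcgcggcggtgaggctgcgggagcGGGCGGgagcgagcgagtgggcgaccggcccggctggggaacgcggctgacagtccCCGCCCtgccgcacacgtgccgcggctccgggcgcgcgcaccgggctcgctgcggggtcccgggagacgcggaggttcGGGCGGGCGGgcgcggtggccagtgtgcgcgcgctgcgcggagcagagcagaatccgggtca
The full palindrome TGACGTCA occurred in 0 of the 4 member windows (Slc25a15 has a second window), against 1.79% of all 32851 windows. The core TGACG occurred in the Nags window alone, on the reverse strand 31 bases after the start, and in 20.8% of all windows. The GC box occurred 2 times in Nags, 5 and 3 times in the Slc25a15 windows and in 35.7% of all windows, without a match in Otc; 2 of the Slc25a15 matches overlap. C/EBP's palindrome TTGCGCAA (0.183% of all windows) and the TATA box letters TATAAA (13.6%) were without a match in the member windows. G and C made up 44.3% of the Otc window, 57.7% of the Nags window and 79.0% of the printed Slc25a15 window, with a median of 52.7% over all windows.

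Every member was well expressed, and none of the 6 passed the threshold in any of the 10 comparisons of groups. Mean log2 values stood above those of 99.7% of tested genes for Cps1, 98.6% for Arg1, 97.1% for Otc, 96.4% for Asl, 95.4% for Slc25a15 and 84.0% for Nags, on a scale that does not allow probe sets to be set against each other exactly. Of the 60 member tests, 0 passed an adjusted p of 0.05 in limma and 12 had an unadjusted p under 0.05. In no member did neighbouring groups in the order of means differ by more than the larger of their SDs. The highest and lowest group mean were 0.79 apart for Asl and between 0.20 and 0.38 for the other 5. In bulk liver, fewer cells of a type and less RNA per cell cannot be told apart.

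**Figure D1:**
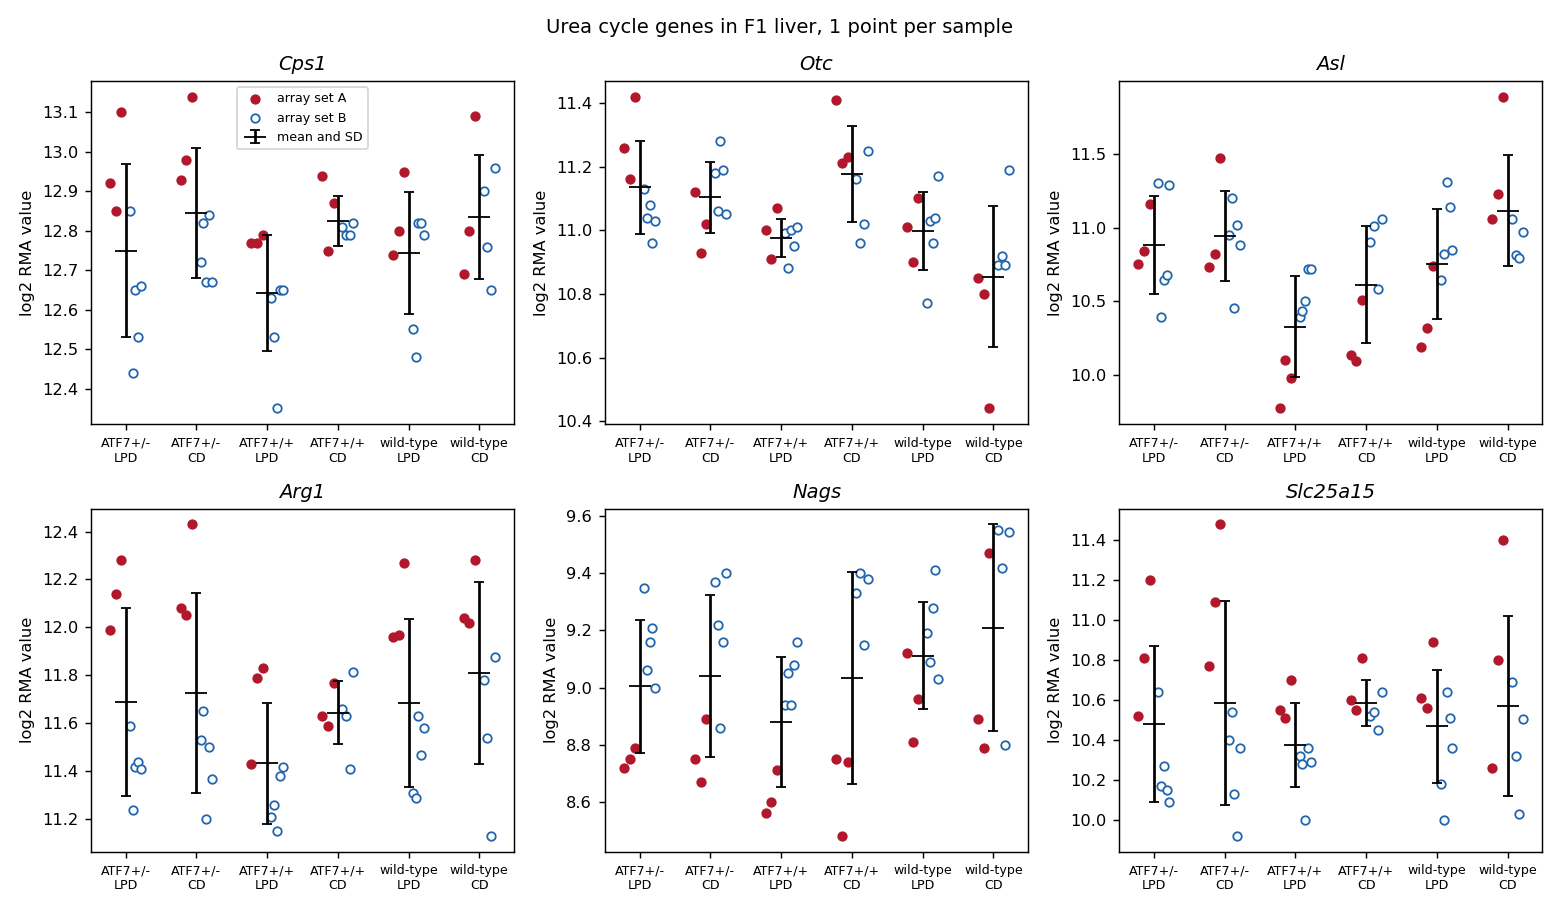
Log2 RMA value (y axis) of each urea cycle gene by group (x axis), 1 point per sample, filled for array set A and open for array set B, with bars for mean and SD. Asl covers the widest range, from 9.77 to 11.89, and its 6 ATF7+/+ samples of set A lie lowest as a group; Arg1 and Slc25a15 are mostly higher, and Nags mostly lower, in set A.

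Nags makes N-acetylglutamate, the obligate activator of Cps1, the mitochondrial enzyme that commits ammonia to the cycle. Cps1 in ATF7+/+ liver had a lowest, median and highest value of 12.35, 12.65 and 12.79 in LPD samples, against 12.75, 12.81 and 12.94 in CD samples. The LPD samples lay mostly below the CD samples, with an overlap between 12.75 and 12.79. In this label the log2 difference, LPD minus CD, was -0.18 ± 0.08 (SE, unadjusted p = 0.0351, adjusted p = 0.999). Nags in the same label had values of 8.56, 8.94 and 9.16 in LPD samples, against 8.48, 9.15 and 9.40 in CD samples, with ranges that overlap widely. Its difference was -0.15 ± 0.14. Within set A the ATF7+/+ differences were -0.08 for Cps1 and -0.03 for Nags, and within set B they were -0.24 and -0.28. In ATF7+/- liver Cps1 and Nags differed by -0.10 ± 0.08 and -0.04 ± 0.14, and in wild-type liver by -0.09 ± 0.08 and -0.10 ± 0.14.

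Averaged over the 3 labels, Cps1 was -0.12 ± 0.05 in LPD relative to CD offspring, a level of 0.918 times (95% interval on the log2 scale -0.22 to -0.03, unadjusted p = 0.0132, adjusted p = 0.309). It was -0.06 within set A, against -0.16 within set B. With the array set as a block it was again -0.12 and did not pass (adjusted p = 0.0940). With that block and the Y-linked level as a covariate, a fit chosen after seeing the data, it was also -0.12 and its adjusted p was 0.0380, where 3.99% of genes passed; over the alternatives other than leaving out a sample the adjusted p ran from 0.0380 to 0.616. A value of this size is smaller than the SD of Cps1 among samples of 1 group, 0.16.

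Otc joins carbamoyl phosphate to ornithine in the mitochondrial matrix, and Slc25a15 exchanges ornithine for citrulline across the inner membrane. Otc in ATF7+/+ liver had a lowest, median and highest value of 10.88, 11.00 and 11.07 in LPD samples, against 10.96, 11.21 and 11.41 in CD samples. In wild-type liver the values were 10.77, 11.02 and 11.17 in LPD samples, against 10.44, 10.89 and 11.19 in CD samples. So the medians differed in opposite directions in these labels, and the samples overlapped in both. The diet difference was -0.20 ± 0.08 in ATF7+/+ liver (unadjusted p = 0.0107, adjusted p = 0.815), 0.03 ± 0.07 in ATF7+/- liver and 0.14 ± 0.08 in wild-type liver (adjusted p = 0.355). Within set A these were -0.29, 0.26 and 0.31, and within set B -0.13, -0.10 and 0.02.

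The test of the difference between labels gave -0.34 ± 0.11 for Otc, ATF7+/+ minus wild-type (unadjusted p = 0.00236, adjusted p = 0.282), and 0.23 ± 0.10 for ATF7+/- minus ATF7+/+ (adjusted p = 1). Within set A the ATF7+/+ minus wild-type difference in diet difference was -0.60 (adjusted p = 0.0425, 3.08% of genes past the threshold), and in set B -0.15 (adjusted p = 0.750). Those set A samples read 11.00, 10.91 and 11.07 in ATF7+/+ LPD, 11.41, 11.21 and 11.23 in ATF7+/+ CD, 11.01, 10.90 and 11.10 in wild-type LPD and 10.85, 10.80 and 10.44 in wild-type CD. In set A the diets therefore did not overlap in either label, with 3 samples on each side. How many of all genes were separated in this way was not counted, so it is not shown to be particular to Otc. The test of set A against set B for this value gave -0.44 (adjusted p = 0.231, 0.546% of genes), so the sets were not shown to differ. Slc25a15 differed between diets by -0.21 ± 0.18 in ATF7+/+, -0.11 ± 0.17 in ATF7+/- and -0.10 ± 0.18 in wild-type liver, and the ATF7+/+ value was -0.07 within set A and -0.29 within set B.

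Asl splits argininosuccinate into arginine and fumarate, and Arg1 releases urea from arginine and returns ornithine to the cycle. Asl in wild-type liver had a lowest, median and highest value of 10.19, 10.78 and 11.31 in LPD samples, against 10.79, 11.06 and 11.89 in CD samples. The highest LPD samples reached the middle of the CD range. The difference was -0.36 ± 0.18 (unadjusted p = 0.0467, adjusted p = 0.304), a level of 0.777 times. In set A the wild-type LPD samples read 10.19, 10.32 and 10.74, against 11.06, 11.23 and 11.89 in wild-type CD, without overlap. The share of all genes without overlap was not counted. The set A difference was -0.98 (adjusted p = 0.00621, where 15.6% of genes passed). In set B it was 0.04 (adjusted p = 0.923, 4.72% of genes). The test of set A against set B gave -1.02 ± 0.28 (adjusted p = 0.0187, where 9.45% of genes passed). The mean of 11 clock genes, centred per gene, was -0.27 in wild-type LPD and 0.60 in wild-type CD in set A, and -0.02 and 0.02 in set B. Over both sets these genes differed between diets by -1.64 to 0.96, with 7 of 11 below 0. In set A, 9 glucagon and glucocorticoid targets (0.08 in LPD, 0.50 in CD) and 4 periportal markers (-0.15, 0.36) were also lower in LPD. Means of 8 pericentral markers (0.09, -0.50) and 2 erythroid markers (0.57, -0.74) were higher. The part of these lists in the Asl result was not tested.

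In the diet comparison, then, 0 of 6 members passed in each label, against 0% of genes in ATF7+/-, 0.00738% in ATF7+/+ and 3.6% in wild-type liver. At an unadjusted p under 0.05 the member counts were 0 in ATF7+/- (1.31% of genes), 2 in ATF7+/+ (4.59%) and 1 in wild-type (15.9%). All 6 members were below 0 in ATF7+/+ liver, with a median of -0.21 (within set A -0.07, with Arg1 at 0.02, and within set B -0.28), while 47.5% of all genes were below 0; 5 of 6 were below 0 in ATF7+/- (47.8% of all genes) and in wild-type liver (48.9%). Averaged over labels 0 of 6 members passed, against 0.805% of genes, with 2 at an unadjusted p under 0.05 (10.1% of genes). All 6 were below 0 there, with Otc at -0.01, which was 0.01 with median centring and 0.09 in set A. The median of the members was -0.12 (within set A -0.05, within set B -0.13), and 46.2% of all genes were below 0. The members other than Otc varied together among samples, as given further on, so these counts of signs are not counts of independent readings. Asl averaged -0.24 ± 0.10 (adjusted p = 0.386), and its adjusted p was 0.0467 in a fit that blocks on the replicate number of each label (1.3% of genes), and 0.0274 within set A, at -0.45 (10.9% of genes). Differences between labels in the diet difference passed in 0 of 6 members for ATF7+/- minus wild-type (0.635% of genes), ATF7+/- minus ATF7+/+ (0%) and ATF7+/+ minus wild-type (0.0222%), with 0, 1 and 1 members at an unadjusted p under 0.05 (9.25%, 2.81% and 7.06% of genes).

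**Figure D2:**
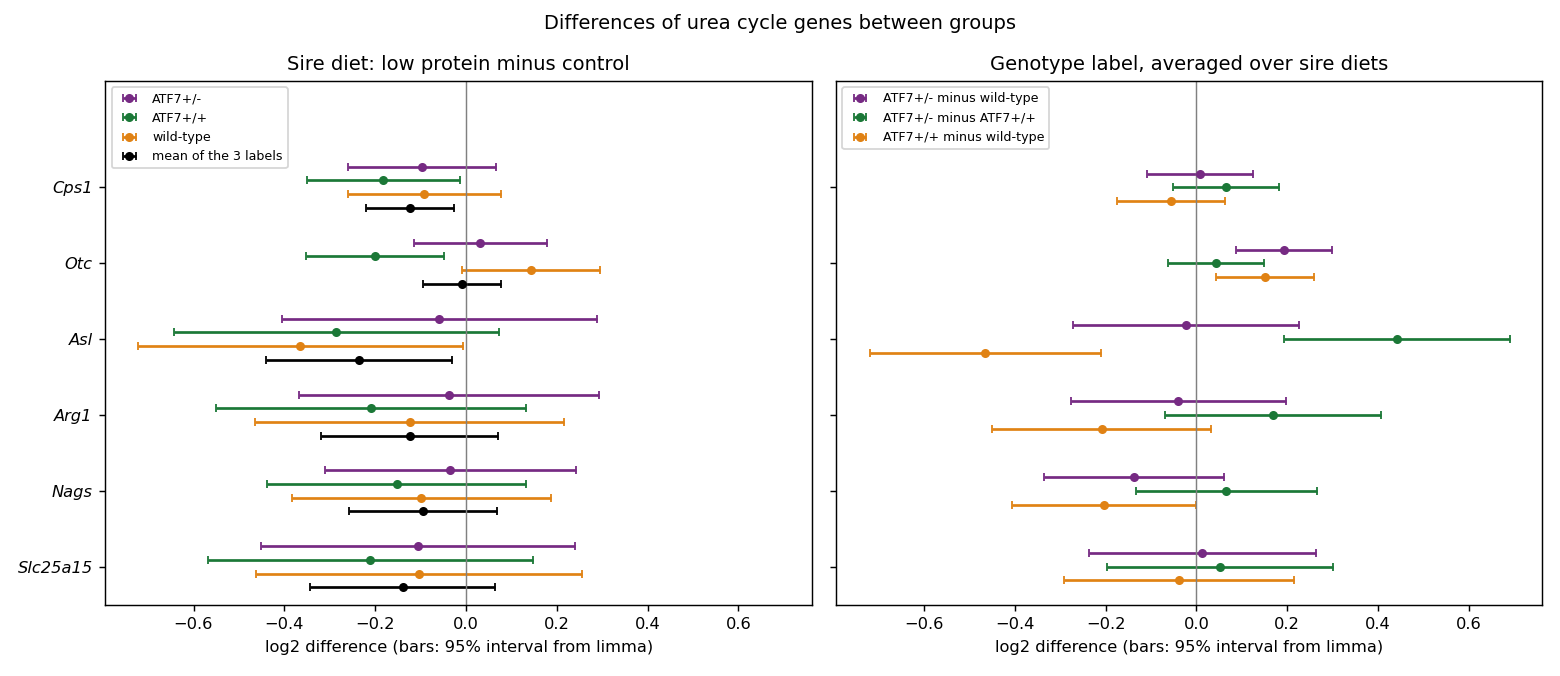
Log2 differences (x axis) of the 6 genes (y axis) with 95% intervals from limma, for sire diet in each label and averaged (left) and for genotype labels averaged over diets (right). The widest departures from 0 are those of Asl against ATF7+/+, at 0.44 for ATF7+/- minus ATF7+/+ and -0.46 for ATF7+/+ minus wild-type; Otc lies at 0.19 for ATF7+/- minus wild-type.

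Between genotype labels, averaged over diets, Asl was lowest in ATF7+/+ liver. Its mean was 10.88 ± 0.33 in ATF7+/- LPD and 10.94 ± 0.31 in ATF7+/- CD (SD). It was 10.33 ± 0.35 in ATF7+/+ LPD and 10.61 ± 0.40 in ATF7+/+ CD, against 10.75 ± 0.38 in wild-type LPD and 11.12 ± 0.37 in wild-type CD. The groups overlap in all 3 labels. ATF7+/+ minus wild-type was -0.46 ± 0.13 (adjusted p = 0.107), a level of 0.725 times, and ATF7+/- minus ATF7+/+ was 0.44 ± 0.12 (adjusted p = 0.119). Without replicate 5 of ATF7+/+ CD the adjusted p of ATF7+/+ minus wild-type was 0.0438. With the array set as a block the same differences had adjusted p values of 0.0293 (3.4% of genes past the threshold) and 0.0336 (3.24%). With the Y-linked covariate added they were -0.40 (adjusted p = 0.0398, 1.71% of genes) and 0.36 (adjusted p = 0.0579, 1.91%).

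Much of the Asl difference lay in set A. There the ATF7+/- samples read 10.75, 10.84 and 11.16 in LPD and 10.73, 10.82 and 11.47 in CD. The ATF7+/+ samples read 9.77, 10.10 and 9.98 in LPD and 10.13, 10.09 and 10.51 in CD, all below every ATF7+/- sample. The share of all genes so separated was not counted. The ATF7+/- samples at 11.16 and 11.47 had low Y-linked levels, while the other ATF7+/- samples and all ATF7+/+ samples of set A had high ones. The part of that level in the set A differences was not tested. ATF7+/- minus ATF7+/+ was 0.87 in set A (adjusted p = 0.000801, 22.8% of genes past the threshold) and 0.16 in set B (adjusted p = 0.796, 0% of genes). ATF7+/+ minus wild-type was -0.81 in set A (adjusted p = 0.00103, 28.6% of genes) and -0.21 in set B (adjusted p = 0.891, 0% of genes). The tests of set A against set B gave 0.70 (adjusted p = 0.0129, 14.6% of genes) and -0.60 (adjusted p = 0.0343, 17% of genes).

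Arg1 took part in the same split. It was 0.49 higher in ATF7+/- than in ATF7+/+ liver in set A (adjusted p = 0.00135) and -0.02 in set B, with a test of the sets at 0.51 (adjusted p = 0.00591). ATF7+/+ minus wild-type in set A was -0.42 for Arg1 (adjusted p = 0.00330), -0.37 for Nags (adjusted p = 0.0101) and 0.29 for Otc (adjusted p = 0.0103), so 4 of 6 members passed there, where 28.6% of all genes did, with Otc opposite in sign to the other 3. In set B the same differences were -0.06, -0.09 and 0.05. Set A also held median log2 differences, ATF7+/+ minus wild-type, of -0.62 over the 5 Kupffer cell markers and -0.65 over 11 clock genes. The median over 9 glucagon and glucocorticoid targets was -0.62 there. In set B these 3 medians were 0.20, -0.06 and -0.04. Other set A medians were 0.05 over 4 hepatocyte, -0.17 over 4 periportal and 0.255 over 8 pericentral markers. The part of these lists in the result was not tested.

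**Figure D3:**
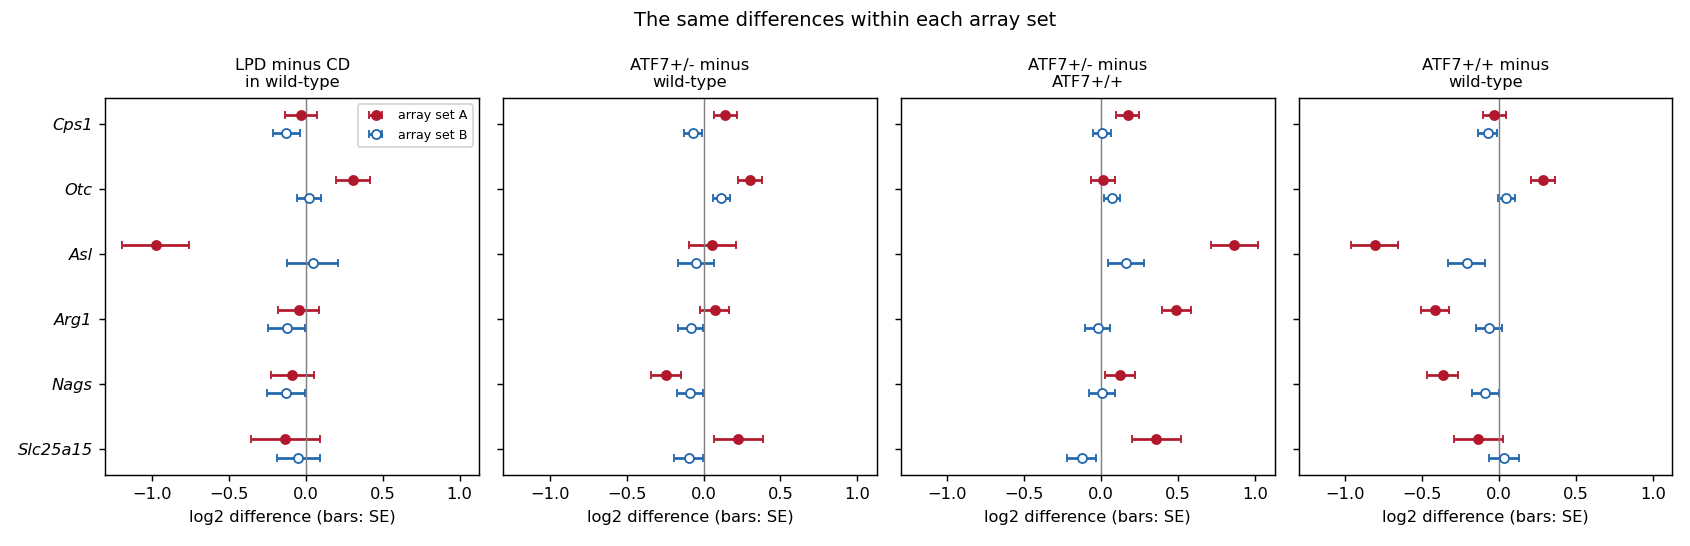
Log2 differences (x axis, bars SE) of the 6 genes (y axis) fitted within array set A (filled) and array set B (open), for LPD minus CD in wild-type liver and the 3 differences of genotype labels. Asl departs from 0 in set A, at -0.98, 0.87 and -0.81 in 3 of the 4 panels, and lies at 0.04, 0.16 and -0.21 in set B.

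Otc was the member with the smallest p for ATF7+/- minus wild-type. Its mean was 11.14 ± 0.15 in ATF7+/- LPD and 11.10 ± 0.11 in ATF7+/- CD, against 11.00 ± 0.12 in wild-type LPD and 10.85 ± 0.22 in wild-type CD (SD). The difference was 0.19 ± 0.05 (unadjusted p = 0.000611, adjusted p = 0.166) and lay at 0.30 within set A, against 0.12 within set B, with an adjusted p of 0.0624 with the array set as a block. Averaged over diets, Otc in ATF7+/+ liver was 0.15 ± 0.05 above wild-type liver (adjusted p = 0.195). Its ATF7+/+ mean was 11.18 in CD, above wild-type CD, but 10.98 in LPD, slightly below wild-type LPD. So both ATF7 labels had higher Otc means than wild-type only when averaged over diets or in CD offspring, and they share that wild-type group. Overall 0 of 6 members passed for ATF7+/- minus wild-type (0.00738% of genes), ATF7+/- minus ATF7+/+ (0.155%) and ATF7+/+ minus wild-type (0.0222%), with 1, 1 and 3 members at an unadjusted p under 0.05 (6.82%, 11.4% and 12.4% of genes).

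Asl was also lower where Y-linked genes were high. With group and array set in the fit, the 32 samples with high Y-linked levels differed from the 14 with low levels by -0.37 ± 0.10 for Asl (adjusted p = 0.0489), where 0.679% of genes passed. The other 5 members did not pass and lay between -0.21 and -0.02, with Arg1 at -0.21 (adjusted p = 0.0829) and Otc at -0.02 (adjusted p = 0.916). Between array sets themselves, 5 of 6 members passed, as did 70.2% of all genes; set A minus set B was 0.51 for Arg1, 0.44 for Slc25a15, 0.17 for Cps1, 0.01 for Otc, -0.19 for Asl and -0.40 for Nags.

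Among samples of 1 group and array set, the members other than Otc varied together. Deviations from the means of group within array set were correlated over 46 samples for the 15 pairs of members, with 100000 two-sided permutations within group and set and Benjamini-Hochberg adjustment over the pairs. All 10 pairs without Otc passed, with Pearson's r from 0.53 to 0.76, and 0 of 5 pairs with Otc passed, with r from -0.13 to 0.19. For Cps1 and Slc25a15, r was 0.76 and rho 0.75 (permutation p = 3e-05 for each, adjusted p = 7.5e-05 for r), and r was 0.70 without the 2 samples farthest from the median. For Asl and Arg1, r was 0.75 and rho 0.80 (permutation p = 1e-05 for each, the smallest the permutations can give, adjusted p = 5e-05 for both), and r was 0.72 without the 2 farthest samples. For Otc and Cps1, r was 0.16 and rho 0.26 (permutation p = 0.430 and 0.149), and r was 0.30 without the 2 farthest samples. Of all 13542 genes tested, between 0.0222% and 1.37% had an r with a member as high as that of the 10 pairs without Otc, and between 16.6% and 75.8% as high as that of the pairs with Otc.

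Within array sets, 7 of the 10 pairs without Otc passed in set A (18 samples) and 10 of 10 in set B (28 samples). The 3 that did not pass in set A pair Nags with Cps1, Asl and Slc25a15, at r of 0.68, 0.63 and 0.65. With deviations from group means alone, which leave the difference between array sets in, 4 pairs passed, and r of Nags with Arg1 was -0.32. The samples also share normalization, Y-linked level and possibly litter, so r describes these samples. In set B, Otc and Cps1 had an r of 0.36 (permutation p = 0.0929) and a rho of 0.41 (permutation p = 0.0453, adjusted p = 0.0618). Whether r differs between pairs with and without Otc was not tested.

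**Figure D4:**
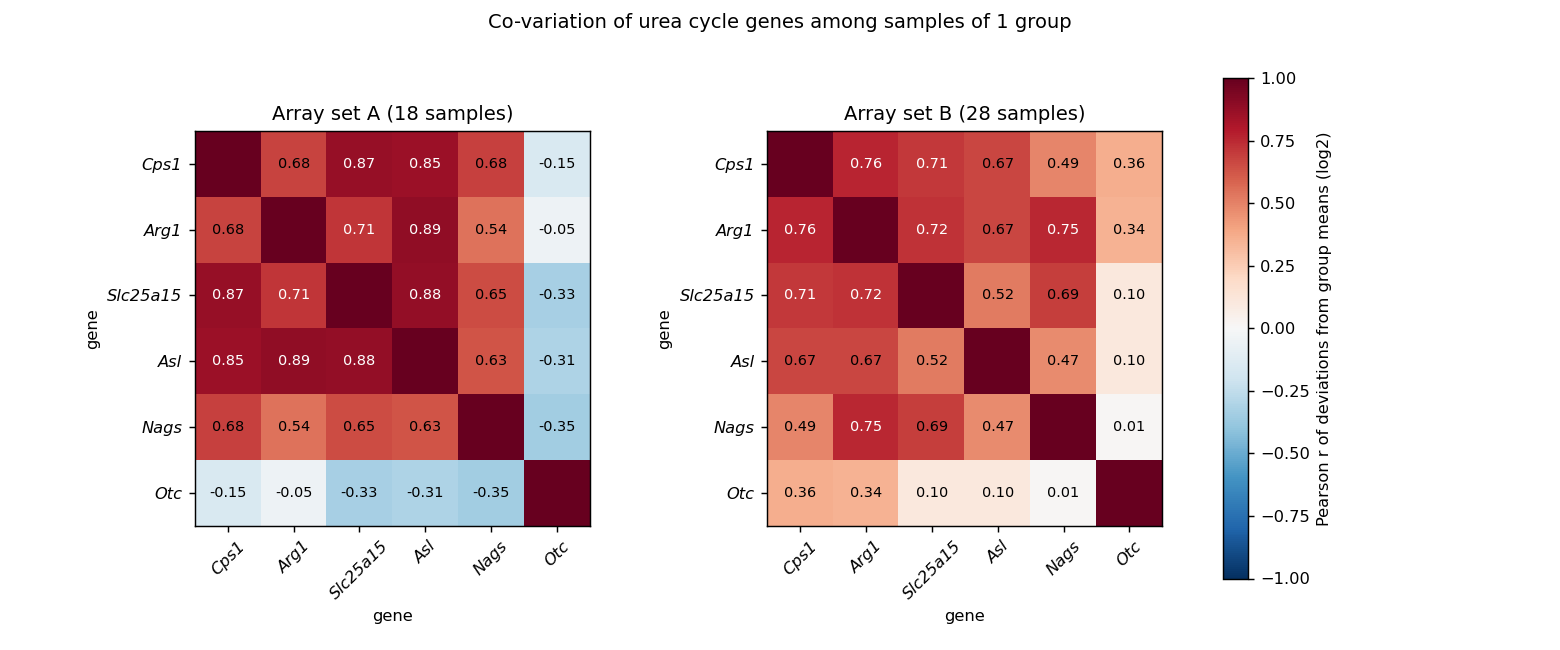
Pearson's r (colour and number) between the 6 genes (both axes) of log2 deviations from the means of group within array set, in array set A (left, 18 samples) and set B (right, 28 samples). The 10 pairs without Otc run from 0.54 to 0.89 in set A and 0.47 to 0.76 in set B; pairs with Otc run from -0.35 to -0.05 and from 0.01 to 0.36.

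The genes whose deviations were most like those of the members are given as a description over 46 samples, which share the features named above. For the mean of the 6 members they were Gnmt, glycine N-methyltransferase (r = 0.86), Mthfd1, a folate enzyme (0.83), and Aass, which starts lysine breakdown (0.82). Cps1 was most like Aass (0.85), Nnmt (0.83) and Aldh1l1 (0.82), and Arg1 most like Mthfd1 (0.80), Slc47a1 (0.76) and Adk (0.75). Asl was most like Klf15, a transcription factor (0.78), Nnmt (0.77) and Sdc1 (0.75), and r with Klf15 was 0.57 for Slc25a15, 0.48 for Arg1, 0.44 for Cps1, 0.42 for Nags and -0.15 for Otc. Nags was most like Bcl3 (0.77), Mlx (0.75) and Hspb8 (0.75), and Slc25a15 most like Ap3m1 (0.79), Hspb8 (0.76) and Abat (0.76). Otc was most like Bphl (0.75), Rarres2 (0.74) and Cyb5a (0.67).

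For the wider pathway, genes past the threshold in the wild-type diet comparison are counted per list, beside 3.6% of all genes. Of 8 measured further genes of the cycle, 1 was lower in LPD than in CD offspring, Slc7a2, which carries arginine and other cationic amino acids into cells, at -0.59 ± 0.18 (adjusted p = 0.0488). Of 18 genes of ammonia, glutamate and glutamine handling, Rhbg, an ammonium transporter, rose by 0.81 ± 0.17 (adjusted p = 0.00266), and Gpt2, the mitochondrial alanine transaminase, fell by 0.65 ± 0.18 on the log2 scale (adjusted p = 0.0276). Of 17 amino acid breakdown genes, 1 fell, Cth, which makes cysteine from cystathionine, at -0.42 ± 0.12 (adjusted p = 0.0320). Of 11 regulators of the cycle 0 passed, nor did any of 9 glucagon and glucocorticoid targets. The smallest p were those of Gcgr, the glucagon receptor, and G6pc, glucose-6-phosphatase. With the array set as a block, where 1254 of 13542 genes passed, 1 regulator was lower and 1 of these targets higher. Under that block 3 genes of ammonia handling were higher and 1 lower, and 2 amino acid breakdown genes and 1 further gene of the cycle were lower. Medians in this comparison without the block were -0.10 over the 6 members, 0.06, 0.07, -0.11, -0.09 and -0.10 over these 5 lists in turn, and 0.00 over all genes.

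Markers of other cells moved in the same comparison. Among 11 clock genes Tef, a clock output factor, fell by 0.77 on the log2 scale (adjusted p = 0.0468). The erythroid gene Alas2 (1 of 2 measured markers passed), the endothelial gene Cdh5 (1 of 5) and the stellate cell genes Lrat and Reln (2 of 5) rose by 0.84, 0.34, 0.53 and 0.42. Of 4 measured hepatocyte markers 0 passed, and neither did any of 4 periportal, 5 Kupffer cell or 3 cholangiocyte markers; of 8 pericentral markers 1 passed, Rhbg again. With the array set as a block 3 pericentral and 3 stellate cell markers were higher and 2 clock genes lower. The hepatocyte, periportal, Kupffer cell and cholangiocyte counts stayed at 0 under that block. Of the genes named here and in the pathway lists, Rhbg kept its call whichever sample was left out (adjusted p from 0.00174 to 0.00829) and missed it in array set A alone (adjusted p = 0.0550). Each of the other 8 genes lost its call without at least 1 sample, and in array set B alone their adjusted p lay between 0.152 and 0.72. The part of these markers in the values of the members was not tested. In the other 9 comparisons no gene of these lists passed over both array sets without a block. With the array set as a block some did. Averaged over labels, where 435 of 13542 genes passed, 2 amino acid breakdown genes, 1 further gene of the cycle and 1 cholangiocyte marker were lower in LPD offspring. There 1 gene each of ammonia handling and of the pericentral markers was higher, lists that share Rhbg and so may count the same gene. Of the glucagon and glucocorticoid targets 1 was also higher. For ATF7+/+ minus wild-type (3.4% of genes) 1 gene each of ammonia handling, of the regulators and of those targets was lower. For ATF7+/- minus ATF7+/+ (3.24%) 1 such target and 1 endothelial marker were higher. For the diet difference of ATF7+/- minus wild-type (299 genes) 1 amino acid breakdown gene was higher and 1 endothelial marker lower.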

How the data were processed

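Liver RNA was labelled with biotin and hybridized to Affymetrix gene arrays, per the labels. The deposited values are on the log2 scale and come from RMA, run by the authors in Affymetrix Expression Console according to the submitters' processing notes; joint normalization of all arrays is not stated in the sources used here. The values, from 1.21 to 14.23 over 35556 probe sets, were used without further normalization. Arrays have no read depth, and their number limits the precision.

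Probe sets with 1 symbol (21789; 1621 had several and 12146 were unlisted) and a mean at or above the 40th percentile (5.46) were kept, with the highest mean per gene. Array pairs whose difference on the 5% most variable genes was under 1.5 times that on the 50% most stable genes counted as 1 sample (ratios 1.33 and 1.45; the others among 78 pairs had 2.25 to 6.33). Array sets were split where 5591 unlisted probe sets left the largest gap between arrays on their leading principal component. Group means were fitted with limma 3.58.1 (R 4.3.3, files read by data.table, version 1.17.8), with 10 two-sided contrasts and Benjamini-Hochberg adjustment over 13542 genes at 0.05. Correlations and motif searches used Python 3.11.15, scipy 1.17.1 and pandas 2.3.3; figures used matplotlib 3.10.9. Of 67 genes simulated at 1.25-fold, 67 at 1.5-fold and 66 at 2-fold in the wild-type diet comparison, 24, 58 and 64 were recovered, with 10 unchanged genes called among 13542.

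The members, gene lists, tests and rules were chosen with earlier results of these data known. Genes were named by rule: the 6 members throughout, list genes past the threshold (at most 4 per list), or otherwise the one with the smallest p, the 3 genes most like each member, and Atf7; the other markers and clock genes are given as list means and medians. The GC box, TATA and C/EBP motifs, the tests between array sets, the Y-linked coefficient and the joint set and Y-linked fit were chosen after seeing the data. The alternatives tried were another filter or none, quantile normalization, median centring, the mean of a gene's probe sets, all 48 arrays, only the groups compared, the array set as a block, each set alone, the Y-linked level as a covariate, the replicate number as a block, and each sample left out. Same-numbered LPD and CD samples deviated together, with r from 0.18 to 0.74 in ATF7+/- and from 0.30 to 0.67 in ATF7+/+, where each pair lay in 1 array set, but from -0.47 to 0.50 in wild-type. Within array sets these r ran from -0.04 to 0.38 in ATF7+/-, from -0.16 to 0.35 in ATF7+/+ and from -0.24 to 0.10 in wild-type, so a pairing by number beyond the shared array set was not shown. The study describes the arrays of a group as biologically independent, but litters are not given, so p-values measure the spread between these samples.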

Additional observations from a re-analysis of the deposited data

Results flagged for a closer look

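Of 36 combinations of gene and group, 1 held a sample far from the others: Asl in wild-type CD replicate 8, at 11.89. The next sample was at 11.23, and the gap was 0.60 of the group's whole range against a critical value of 0.568 for 7 samples. Chance flags about 1 in 20 groups. The sample lies in array set A, where the wild-type diet difference of Asl was -0.98. Without a flag, it also held the lowest Otc value of all samples, 10.44. It was the highest of its group for Cps1 (13.09), Arg1 (12.28) and Slc25a15 (11.40) as well. Its mean level of Y-linked genes was low, at 3.88, against 7.99 and 7.89 in replicates 6 and 7 of wild-type CD in set A. The part of that level in the flagged value was not tested. Without it the difference over both sets was -0.24 (limma adjusted p = 0.683), against -0.36 with it.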

How the results depend on the processing

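The counts of members past the threshold were 0 in all 10 comparisons. With array set A alone they were 1 (Asl) for the diet difference in wild-type, 1 (Asl) averaged over labels, 1 (Otc) for ATF7+/+ minus wild-type in the diet difference, 2 for ATF7+/- minus ATF7+/+ and 4 for ATF7+/+ minus wild-type. With the array set as a block they were 1 (Asl) for ATF7+/- minus ATF7+/+ and 1 (Asl) for ATF7+/+ minus wild-type. With the set block joined to the Y-linked covariate they were 1 (Cps1) averaged over labels and 1 (Asl) for ATF7+/+ minus wild-type. Leaving out each sample gave 0 to 1 for ATF7+/+ minus wild-type and 0 in the other 9 comparisons. With deviations from group means only, 4 of the member pairs were correlated past the threshold in place of 10. Among member values under alternatives other than leaving out a sample, 15 passed the threshold, 29 changed sign and the rest did neither; of 1656 with a sample left out, 84 changed sign and 1 passed. Over all genes tested, counts past the threshold changed with the setting: for the diet difference in wild-type 487 became 139 when only the groups compared were fitted, 1254 with the set block and 2118 in set A. Averaged over labels 109 became 435 with that block and 1478 in set A. ATF7+/- minus ATF7+/+ had 21, against 439 with that block, 3090 in set A and 0 in set B. ATF7+/+ minus wild-type had 3, against 460, 3869 and 0 under those settings. The remaining 6 comparisons had 0 to 86 genes, and at most 417 under any alternative.

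A fit that blocks on the replicate number of each label called Asl, at -0.44 in wild-type liver (adjusted p = 0.0428), a count of 1, and at -0.28 averaged over labels (adjusted p = 0.0467), a count of 1; it changed no other member's call. In wild-type the same-numbered samples share an array set in replicates 3, 4 and 6 only. They share a high or low Y-linked level there in replicates 1, 2, 3 and 8. In the ATF7 labels all same-numbered samples share both the array set and that level. The block therefore also takes up parts of these features, and their part in the Asl calls was not tested. For the diet difference of ATF7+/- minus wild-type this replicate block gave 0.023 for Slc25a15 and 0.0066 for Cps1, turned in sign. The block cannot give differences between labels.

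Signs turned in array set A as follows. For the diet difference, ATF7+/+ minus wild-type was 0.067 for Arg1, 0.053 for Nags and 0.067 for Slc25a15, ATF7+/- minus ATF7+/+ was -0.07 for Arg1 and -0.20 for Slc25a15, and ATF7+/- minus wild-type was -0.0033 for Arg1. Otc averaged over labels was 0.091, and Arg1 in ATF7+/+ was 0.02. ATF7+/- minus wild-type was 0.057 for Asl and 0.072 for Arg1. In array set B, ATF7+/- minus wild-type was -0.0698 for Cps1 and -0.095 for Slc25a15, ATF7+/- minus ATF7+/+ was -0.021 for Arg1 and -0.13 for Slc25a15, and ATF7+/+ minus wild-type was 0.032 for Slc25a15. For the diet difference in set B, Asl in wild-type was 0.0445, Otc in ATF7+/- was -0.10, ATF7+/+ minus wild-type was -0.38 for Asl, and ATF7+/- minus wild-type was 0.042 for Slc25a15, -0.0845 for Asl and 0.0075 for Cps1. The same contrast was 0.0053 for Slc25a15 and 0.00225 for Cps1 with the Y-linked covariate, 0.011 for Cps1 with all 48 arrays and 0.018 for Slc25a15 with quantile normalization, which also gave -0.0083 for Slc25a15 in ATF7+/- minus wild-type. Median centring gave 0.014 for Otc averaged over labels. The cause of these changes was not tested.

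Leaving out 1 sample at a time also turned signs of small differences. For the diet difference in wild-type, Slc25a15 ran between -0.19 and 0.0346. In ATF7+/- the diet difference ran between -0.00946 and 0.0564 for Otc, -0.13 and 0.017 for Asl, -0.12 and 0.063 for Arg1, -0.0879 and 0.0164 for Nags, -0.21 and 0.0227 for Slc25a15. Averaged over labels, Otc ran between -0.0318 and 0.00984. The diet difference of ATF7+/- minus wild-type ran between -0.0543 and 0.04 for Cps1, -0.14 and 0.13 for Slc25a15, and that of ATF7+/+ minus wild-type between -0.0498 and 0.16 for Asl, -0.16 and 0.0277 for Arg1, -0.15 and 0.0151 for Nags. Averaged over diets, ATF7+/- minus wild-type ran between -0.0166 and 0.0305 for Cps1, -0.0629 and 0.0417 for Asl, -0.0963 and 0.00214 for Arg1, -0.0505 and 0.0823 for Slc25a15. Slc25a15 ran between -0.0118 and 0.0996 for ATF7+/- minus ATF7+/+ and between -0.0839 and 0.0302 for ATF7+/+ minus wild-type.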
